A study of Mus musculus with 4 samples.

Results

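The 7 genes of macrophage arginine, nitric oxide and itaconate metabolism followed here were Nos2, Arg1, Arg2, Ass1, Slc7a2, Acod1 and Gch1. They were taken as listed, and every probe set of the array with 1 of these names as its only gene symbol was used, which gave 12 of 45037 probe sets for these 7 of 18193 genes. A further probe set carries Ass1 beside the symbol Gm5424 and was left out. Thioglycollate-elicited peritoneal macrophages, the attached cells of the peritoneal exudate, came from KO mice (LysM Cre/+:Setdb1 fl/fl) and from WT mice (+/+:Setdb1 fl/fl) on a C57BL6/J background, so both genotypes carry the floxed Setdb1 alleles and the WT mice carry no Cre. LysM Cre is active in macrophages and also in neutrophils. The cells received lipid A, the active component of LPS, or vehicle for 4 h, and each of the conditions KO lipid A, KO vehicle, WT lipid A and WT vehicle was hybridised to 1 Affymetrix array. The dose of lipid A is 10 ng/ml in the description of the series and 10 µg/ml in the sample labels, and the age and number of mice behind an array are not given in the sources used here. With 1 array a condition, no difference has a replicate check and no p-value was computed.

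Arginine that enters a macrophage can be oxidised to nitric oxide and citrulline or split into ornithine and urea. Inducible nitric oxide synthase, the product of Nos2, takes the first route and needs tetrahydrobiopterin, whereas the arginases take the second, which leads to polyamines and proline. Itaconate is made in mitochondria from the citric acid cycle intermediate cis-aconitate, and it inhibits succinate dehydrogenase and has antimicrobial activity. These routes are known as hallmarks of macrophage activation.

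The deposited signals are on a linear scale, with the same trimmed mean of 500.004 on every array, and the number of arrays limits the precision. The median signal was 75.8 in KO lipid A, 84.2 in KO vehicle, 74.8 for WT lipid A and 65.1 for WT vehicle, and a signal below the median of its array was treated as background. A gene with several probe sets is represented by the 1 with the highest mean log2 signal. For the members the others are given beside it, and for other genes only some of them are given. A fold is the brighter signal over the dimmer, and where the dimmer lay below the median of its array, that median took its place and the fold is written as at least that size. Counts of genes past a threshold use the ratios as measured, so a gene can be counted through a background signal. Between probe sets of 1 gene the log2 ratio had an SD of 0.39 to 0.46 over the 4 comparisons, or 1.31-fold to 1.38-fold, a technical spread that leaves out mice and arrays. Setdb1 was 1.35-fold lower in KO than in WT under lipid A (386 against 521) and 1.70-fold lower under vehicle (346 against 589) by 1 of its 3 probe sets, whose place relative to the deleted exons is not known here, so that it does not check the genotype labels.

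Signals of the arginine transporter, the mitochondrial arginase and Gch1 and Acod1, enzymes of tetrahydrobiopterin and itaconate synthesis, were higher with lipid A in both genotypes, while those of Nos2 and Arg1 were in the background on every array. In these samples of mixed cells, fewer cells of a type and less RNA per cell cannot be told apart. Among detected members, lipid A over vehicle passed 2-fold upwards for 4 of 5 in KO, namely Arg2, Slc7a2, Acod1 and Gch1, against 11.2% of 12293 detected genes, and for 5 of 5 in WT, the same genes and Ass1, against 11.8% of 12129. No member was over 2-fold lower, against 16% of genes in KO and 8.94% in WT. A gene was counted as detected in a comparison when its brighter signal reached the median of its array, so a member detected only with lipid A could only be higher.

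**Figure D1:**
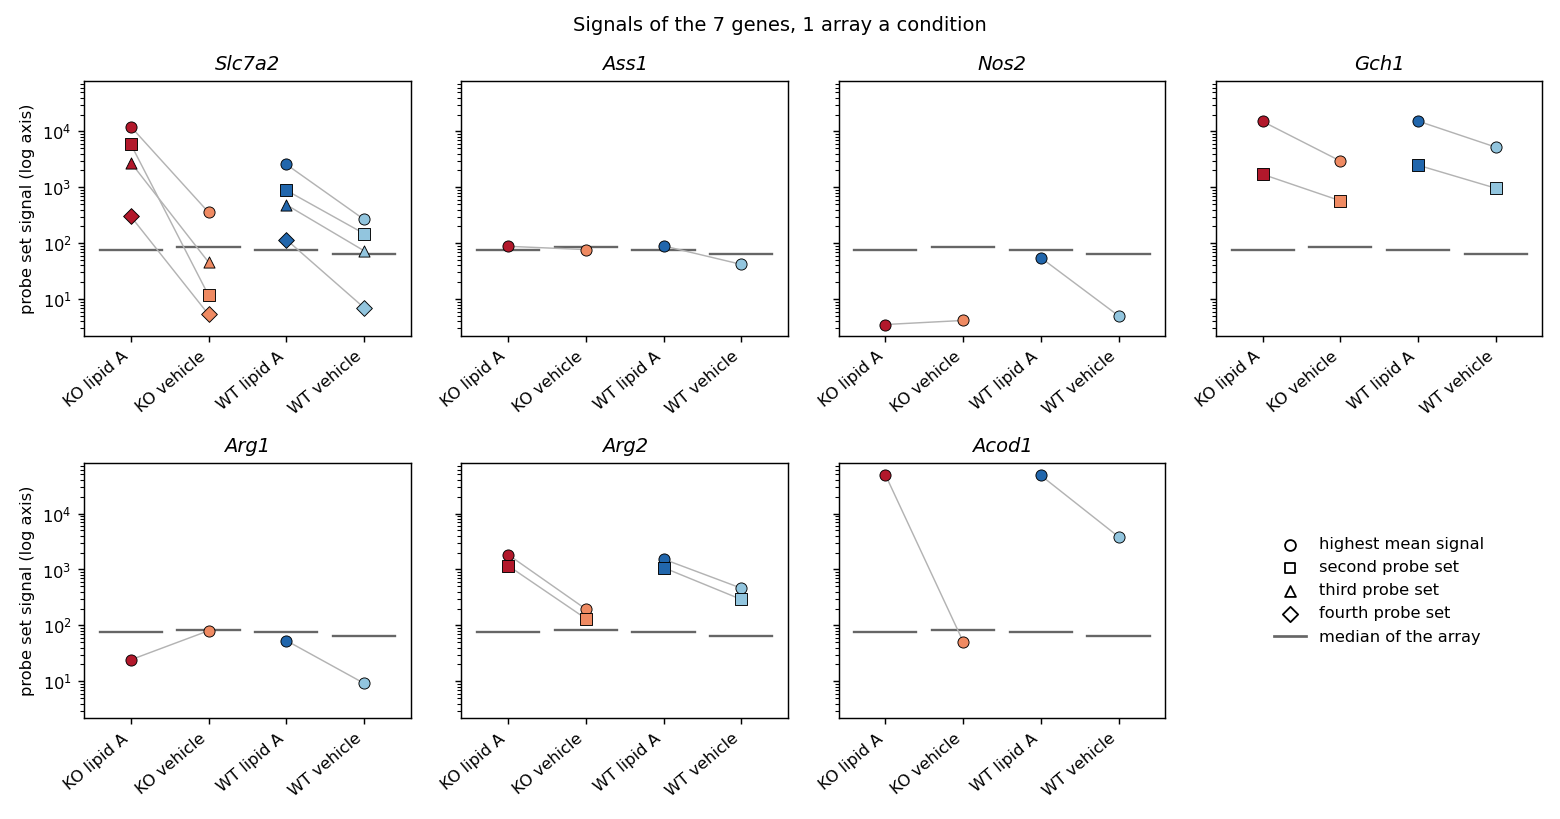
Probe set signals of the 7 genes on a log axis, the KO arrays left of the WT arrays, with 1 symbol a probe set, a short line at the median of each array and thin lines joining the arrays of a genotype. Nos2 and Arg1 lie below the line on all 4 arrays, Slc7a2 is highest in KO lipid A by every probe set, and Acod1 lies below the line in KO vehicle, at 51.4, and above it in WT vehicle, at 3839.

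The genotypes differed in a single member under each treatment by the 3-fold threshold. Under lipid A, Slc7a2 was higher in KO than in WT, 1 of 5 detected members against 6.35% of 12335 genes, and no member was lower, against 5.73%. Under vehicle, Acod1 was lower in KO, 1 of 4 detected members against 3.65% of 12002 genes, and no member was higher, against 6.28%. The median log2 ratio of KO over WT was 0.035 over the 5 members under lipid A, beside -0.013 over all detected genes, and -1.03 over the 4 members under vehicle, beside 0.097. The 4 comparisons share arrays, and each array enters 2 of them.

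Nos2 encodes inducible nitric oxide synthase. Its single probe set gave 3.51 in KO lipid A, 4.16 in KO vehicle, 55.0 for WT lipid A and 5.03 for WT vehicle. All of these lie below the medians of their arrays, WT lipid A at percentile 41.6 of the probe sets and the other arrays at percentiles 6.73 to 11.0, so no fold is given. The signal in WT lipid A was thus the highest but was not above background, and induction of Nos2 at 4 h was not detectable on these arrays.

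Arg1 encodes the cytosolic arginase, a marker of alternatively activated mouse macrophages, and Arg2 the mitochondrial arginase. Arg1, with 1 probe set, gave 24.3 in KO lipid A, 80.3 in KO vehicle, 53.6 for WT lipid A and 9.22 for WT vehicle. The KO vehicle signal came closest to the median of its array, at percentile 48.8, and no fold is given. Arg2 lay above the median on all arrays. It gave 1842 in KO lipid A and 195 in KO vehicle, against 1530.3 for WT lipid A and 463 for WT vehicle. Arg2 was therefore higher with lipid A, 9.42-fold in KO and 3.31-fold in WT. Its second probe set gave 1167 in KO lipid A, 132 in KO vehicle, 1078 for WT lipid A and 291 for WT vehicle, or 8.83-fold in KO and 3.70-fold in WT. Between the genotypes, Arg2 was higher in KO under lipid A, 1.20-fold and 1.08-fold, by the first and the second probe set, which is within the technical spread. Under vehicle it was 2.37-fold and 2.20-fold lower in KO, and of the alternatives at 3-fold, only dividing each array by its median took it past the threshold.

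Slc7a2 encodes the cationic amino acid transporter CAT2, which carries arginine into activated macrophages. Its brightest probe set gave 12103 in KO lipid A and 356 in KO vehicle, against 2565 for WT lipid A and 266 for WT vehicle. KO lipid A was the highest array and the vehicle arrays of both genotypes were the lowest. Lipid A over vehicle gave 34.0-fold in KO and 9.63-fold in WT, and KO lipid A was 4.72-fold higher than WT lipid A. This ratio of KO over WT had rank 63 of the 12335 genes detected under lipid A, with background signals of all genes raised to the median. The second probe set gave 5865 in KO lipid A, 11.7 in KO vehicle, 882 for WT lipid A and 149 for WT vehicle, and the third gave 2760.4 in KO lipid A, 45.6 in KO vehicle, 487 for WT lipid A and 73.2 for WT vehicle. The fourth gave 300.7 in KO lipid A and 116 in WT lipid A, with both vehicle signals below the median. KO lipid A exceeded WT lipid A 6.65-fold, 5.67-fold and 2.59-fold by these probe sets, so that 3 of 4 probe sets passed 3-fold and all 4 had the same direction.

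Under vehicle the probe sets of Slc7a2 disagreed. The brightest was 1.34-fold higher in KO, the second was at least 1.76-fold lower in KO, the third was measured in WT only and the fourth in neither genotype. Their median log2 signal gave a log2 ratio of -2.18, whereas the brightest gave 0.42. By the same median the log2 ratio of lipid A over vehicle was 7.45 in KO and 2.65 in WT. No direction is therefore given for Slc7a2 without stimulation. The lipid A response by the second probe set was at least 69.7-fold in KO and 5.94-fold in WT, and by the third at least 32.8-fold in KO and 6.65-fold in WT.

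Ass1 encodes argininosuccinate synthase, which returns citrulline to the path towards arginine. Its probe set gave 88.0 in KO lipid A and 76.8 in KO vehicle, against 89.5 for WT lipid A and 41.8 for WT vehicle. The lipid A signals lay just above and the vehicle signals below the medians of their arrays. Measured against the median, the lipid A signal of Ass1 was higher at least 1.05-fold in KO and at least 1.37-fold in WT, so its place among the genes over 2-fold higher in WT rests on a background signal. Under lipid A the genotypes differed by 1.02-fold.

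Gch1 encodes GTP cyclohydrolase 1, the rate-limiting enzyme of tetrahydrobiopterin synthesis. It gave 14998 in KO lipid A and 2943 in KO vehicle, against 15242.5 for WT lipid A and 5209 for WT vehicle. The lipid A signals of the genotypes lay within 1.02-fold of each other, and KO vehicle was the lowest array. Its lipid A response was 5.10-fold in KO and 2.93-fold in WT. The second probe set, with 1704 in KO lipid A, 573 in KO vehicle, 2481 for WT lipid A and 961 for WT vehicle, gave 2.97-fold and 2.58-fold. Under vehicle Gch1 was 1.77-fold lower in KO by the first probe set and 1.68-fold lower by the second, which is below the 3-fold threshold.

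Acod1, also known as Irg1, encodes the decarboxylase that makes itaconate, and its single probe set showed the widest range of all members. It gave 49219.7 in KO lipid A and 51.4 in KO vehicle, against 48029.5 for WT lipid A and 3839 for WT vehicle. The lipid A signals of the genotypes differed by 1.02-fold, both at percentile 99.8 of their arrays, whose highest signals were 126693 in KO lipid A and 114744 in WT lipid A. WT vehicle lay at percentile 95.1, whereas KO vehicle lay below the median, at percentile 37.2. The lipid A response was at least 585-fold in KO and 12.5-fold in WT. Without stimulation it was at least 45.6-fold lower in KO than in WT, a difference that is not counted when both arrays must reach their median.

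With background signals raised to the median, Acod1 had rank 1 of the 12293 genes detected in KO by its ratio of lipid A over vehicle, and rank 43 of 12129 in WT. Its ratio of KO over WT under vehicle had rank 1 from the low end among 12002 genes. The KO vehicle signal enters 2 of these comparisons, and it comes from 1 probe set on 1 array. That array also had the highest ratio of 3′ to 5′ probe sets for actin, a measure of RNA integrity, at 2.19 against 1.79 to 2.09 on the others, and for Gapdh, at 1.35 against 0.945 to 1.07. The part of RNA quality in the low KO vehicle signals of Acod1, Arg2 and Gch1 was not tested.

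The promoters of Acod1 and Gch1 are shown because these members had like lipid A signals in the genotypes while KO vehicle was the lowest array for both. RefSeq promoter sequences were at hand for 3 of the 7 members, Acod1, Gch1 and Ass1, as windows of 250 bases before to 50 bases after the gene start in build GRCm38.p6. The windows of Acod1, chr14:103046762-103047061 on the plus strand, and of Gch1, chr14:47189364-47189663 on the minus strand, are printed 5′ to 3′, with the motifs found in capitals.
Acod1: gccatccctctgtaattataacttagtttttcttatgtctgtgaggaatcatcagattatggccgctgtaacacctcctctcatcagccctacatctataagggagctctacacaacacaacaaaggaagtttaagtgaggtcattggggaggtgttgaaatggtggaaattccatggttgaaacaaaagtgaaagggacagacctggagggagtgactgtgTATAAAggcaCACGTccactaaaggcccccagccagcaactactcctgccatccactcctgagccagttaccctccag
Gch1: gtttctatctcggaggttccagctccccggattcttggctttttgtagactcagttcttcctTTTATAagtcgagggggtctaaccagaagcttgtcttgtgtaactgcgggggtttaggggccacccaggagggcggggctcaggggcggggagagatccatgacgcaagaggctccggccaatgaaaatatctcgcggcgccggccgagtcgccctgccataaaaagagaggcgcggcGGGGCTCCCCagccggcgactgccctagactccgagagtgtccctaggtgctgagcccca

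Both strands were searched for 7 motifs. The Acod1 window holds a TATA box (TATAAA) from -28 to -23 and a hypoxia response core (ACGTG, on the minus strand) from -18 to -14, counted from the gene start. The Gch1 window holds an NF-κB site from -10 to -1 and a TATA box on the minus strand from -188 to -183, and no motif overlaps another in these windows. Among the 32851 windows of the table, 13.6% hold the TATA box, 19.6% the hypoxia response core and 4.51% the NF-κB site. The interferon-stimulated response element (GAAANNGAA), the gamma-activated site (TTCNNNGAA), the C/EBP motif (TTNNGNAAT) and the AP-1 motif (TGANTCA) were not found in either window, and 8.56%, 8.30%, 11.5% and 7.81% of all windows hold them in that order. A match describes these letters only.

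**Figure D2:**
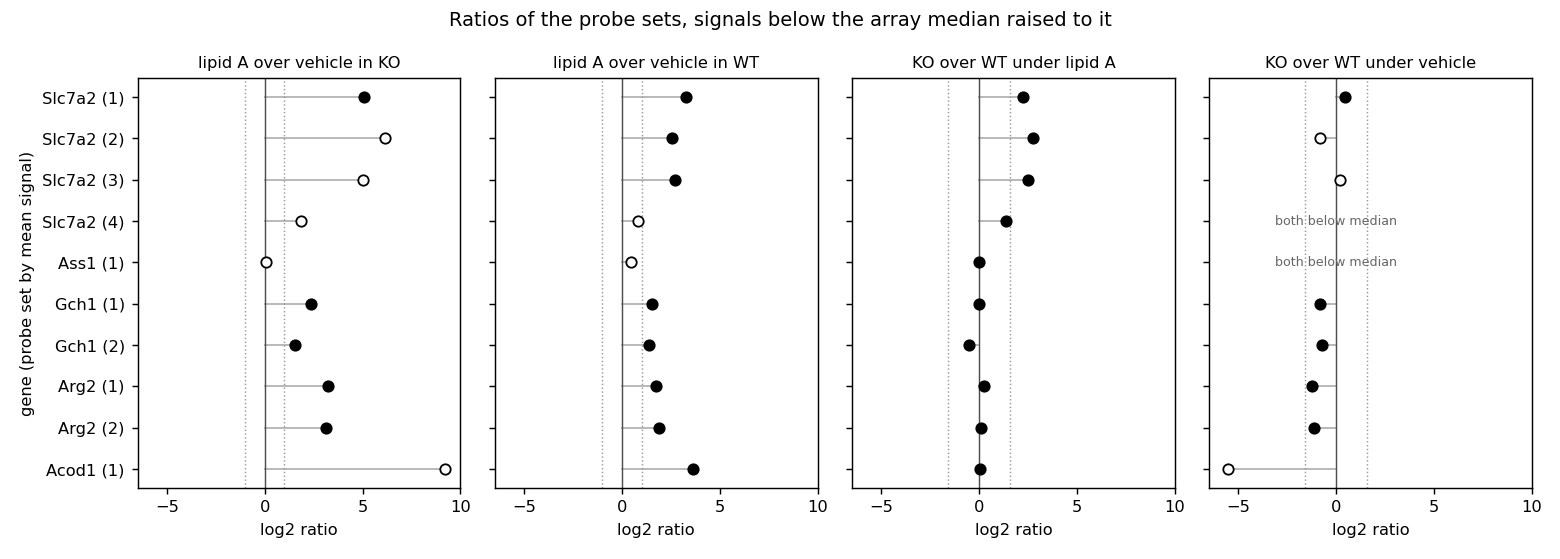
Log2 ratios of the 10 probe sets that reached the median on at least 1 array, in a panel for each of the 4 comparisons, with background signals set to the median of their array. Filled points have both signals at or above the median, open points have 1 below it and are bounds, and dotted lines mark 2-fold for lipid A and 3-fold for the genotypes. Under lipid A only probe sets of Slc7a2 pass the dotted line, and under vehicle only Acod1 does, at -5.51.

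The lipid A responses of 4 members were larger in KO than in WT. As the log2 response in KO minus that in WT, with background signals raised to the median, the difference was 5.55 for Acod1, 1.82 for Slc7a2, 1.51 for Arg2, 0.80 for Gch1 and -0.39 for Ass1. Over all 13567 genes that reached the median on at least 1 array, the median difference was -0.18 and the 5th and 95th percentiles were -1.18 and 0.83. Over the 692 of them with a lipid A response above 2-fold in WT, the median was -0.32 and these percentiles were -1.94 and 2.10, a range that holds Slc7a2, Arg2, Gch1 and Ass1 but not Acod1. Among all 13567 genes Acod1 had rank 1 from the high end, Slc7a2 rank 86, Arg2 rank 161 and Gch1 rank 729. For the brightest probe set of Slc7a2 the difference lay in the lipid A arrays, whereas for Acod1, both probe sets of Arg2 and the brightest of Gch1 it lay in the lower KO vehicle signals. The second probe set of Gch1 gave a difference of 0.20, less than the technical spread, and was 1.46-fold lower in KO than in WT under lipid A. No test of these differences was possible.

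**Figure D3:**
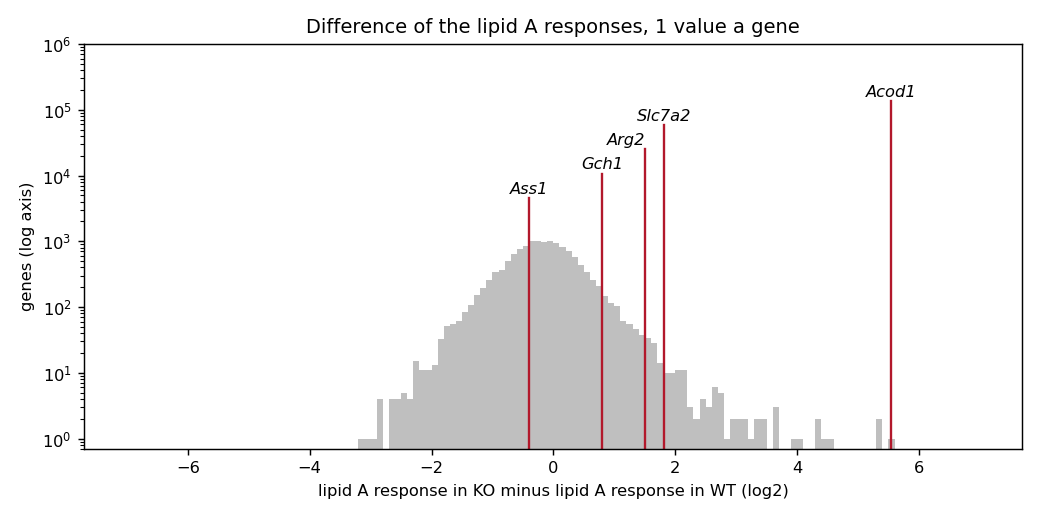
Number of genes, on a log axis, by the log2 lipid A response in KO minus that in WT, for the 13567 genes at or above the median on at least 1 array, with background signals raised to the median. Red lines mark the members, of which Acod1 lies at 5.55 and Ass1 at -0.39.

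A minority of the neighbouring genes of these pathways passed a threshold. Of 98 genes in 9 lists, 89 had a probe set. With lipid A in KO, 12 of 79 detected genes were over 2-fold higher and 7 lower, or 15.2% and 8.86%, and in WT 8 of 76 were higher and 3 lower, or 10.5% and 3.95%. Between the genotypes, 5 of 79 were over 3-fold higher in KO and 5 lower under lipid A, beside 6.35% and 5.73% of all genes, and 3 of 78 were higher and 2 lower under vehicle, beside 6.28% and 3.65%. With the median in place of background signals, 2 were higher and 2 lower under lipid A, 1 higher and 2 lower under vehicle, 9 higher and 5 lower with lipid A in KO, and 8 higher and 3 lower in WT. The shares past 2-fold over all genes were 11.2% higher and 16% lower in KO, and 11.8% and 8.94% in WT. They also stand beside the counts past 2-fold of the single lists below.

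Among amino acid transporters, 3 of 10 detected genes passed 2-fold upwards in KO, beside 11.2% of all genes, and 4 of 9 in WT, beside 11.8%, and the list was not tested. Slc7a1, the constitutive arginine transporter CAT1, gave 9842 in KO lipid A and 3700.2 in KO vehicle, against 6353 for WT lipid A and 2807 for WT vehicle, or 2.66-fold in KO and 2.26-fold in WT. Slc7a5, a subunit of the transporter of large neutral amino acids, was 4.19-fold higher in KO and 3.71-fold in WT. Slc7a8 had the smaller response in KO, 1.93-fold higher there and 3.66-fold in WT. Slc7a11, which exchanges cystine for glutamate, gave 6191 in KO lipid A and 602 in KO vehicle, against 6554 for WT lipid A and 2658 for WT vehicle. Its lipid A response was 10.3-fold in KO and 2.47-fold in WT, and it was 4.41-fold lower in KO than in WT under vehicle. By its second probe set the lipid A response was 7.53-fold in KO but 1.28-fold in WT, so its count in WT rests on the first. This second probe set was 11.6-fold lower in KO under vehicle. Under lipid A it was 1.97-fold lower in KO, against 1.06-fold lower by the first.

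No detected gene of tetrahydrobiopterin synthesis and recycling other than Gch1 passed 2-fold with lipid A, 0 of 4 in KO and 0 of 5 in WT. Of all genes, 11.2% were higher and 16% lower in KO, and 11.8% and 8.94% in WT, and the list was not tested. Pts, which follows Gch1 in the synthesis, was 1.79-fold lower with lipid A in KO and 1.42-fold lower in WT, and Qdpr, which recycles the cofactor, was 1.56-fold and 1.32-fold lower. Of the genes of arginine supply and its further products, 1 of 11 passed 2-fold upwards with lipid A in KO, 2 passed it downwards and 0 of 9 passed in WT. Those 3, Azin2, Agmat and Gatm, had a background signal on 1 array of the comparison. With the median in its place, Gatm was still at least 2.15-fold lower. Azin2 and Agmat fell short of 2-fold, at least 1.95-fold higher and at least 1.24-fold lower. Asl, the enzyme after Ass1, gave 997 in KO lipid A and 1205 in KO vehicle, against 990.1 for WT lipid A and 1278 for WT vehicle.

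Downstream of the arginases, 1 of 8 polyamine genes passed 2-fold with lipid A in KO and 0 of 8 in WT. Sat1, which acetylates polyamines, was 2.16-fold higher with lipid A in KO. Odc1, the enzyme that turns ornithine into putrescine, gave 3425 in KO lipid A and 1745 in KO vehicle, against 1801 for WT lipid A and 2274 for WT vehicle. It was 1.90-fold higher in KO than in WT under lipid A, and its other probe sets gave 2.35-fold and 2.65-fold.

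Around the itaconate branch, 1 of 11 genes passed 2-fold with lipid A in each genotype. Idh1, the cytosolic isocitrate dehydrogenase, gave 2223 in KO lipid A and 10084 in KO vehicle, against 3255 for WT lipid A and 10029 for WT vehicle, or 4.54-fold lower in KO and 3.08-fold lower in WT. A second probe set gave 5.14-fold and 4.17-fold. Idh2, the mitochondrial NADP-dependent enzyme, was 1.98-fold lower with lipid A in KO and 1.27-fold lower in WT. Its second probe set was 2.13-fold lower in KO and 1.10-fold lower in WT. None of the 8 detected genes of succinate dehydrogenase and itaconate breakdown passed a threshold in any comparison, with log2 medians of -0.26 in KO and -0.19 in WT for lipid A over vehicle.

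Among 11 transcription factors known to act on Nos2, Arg1 or Acod1, 2 were over 2-fold higher and 2 lower after lipid A in KO, and 3 were higher and 2 lower in WT. Irf1, an interferon-responsive factor, was 13.0-fold higher in KO and 11.4-fold higher in WT, with 21204 in KO lipid A and 21439 in WT lipid A. Rela, the p65 subunit of NF-κB, gave 6429 in KO lipid A and 2917 in KO vehicle, against 5955 for WT lipid A and 2767 for WT vehicle. Cebpa was 7.31-fold lower with lipid A in KO and 2.33-fold lower in WT, and Pparg, a lipid-sensing nuclear receptor, 7.48-fold and 2.88-fold lower. Klf4 gave 1274 in KO lipid A and 2328 in KO vehicle, against 4084 for WT lipid A and 1788 for WT vehicle, and it was 3.21-fold lower in KO than in WT under lipid A. Its second probe set was 2.63-fold lower in KO under lipid A, short of 3-fold. With lipid A in WT, Klf4 was 2.28-fold higher by the first probe set and 1.31-fold by the second. Its count among the higher genes in WT thus rests on the first.

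Of nitric oxide targets and genes of nitrosothiol handling, 1 of 7 was over 2-fold higher and 1 lower with lipid A in KO and 0 of 8 in WT. Txnrd1, thioredoxin reductase, was 2.06-fold higher in KO and 1.92-fold higher in WT. Its other probe sets gave 2.05-fold and 1.71-fold in KO and 1.54-fold and 1.18-fold in WT. Of markers of resting or alternative activation, the group in which Arg1 is usually counted, 4 of 9 were over 3-fold higher in KO than in WT under lipid A and 1 was lower, beside 6.35% and 5.73% of all genes. Retnla and Clec10a passed 3-fold also against the median, whereas Ccl17 and Ccl24, at least 2.24-fold and at least 1.60-fold higher, were counted through background signals in WT. Clec10a, a lectin, gave 445 in KO lipid A and 1075 in KO vehicle, against 72.5 for WT lipid A and 121 for WT vehicle. Chil3, a chitinase-like protein, gave 463 in KO lipid A and 458 in KO vehicle, against 1481 for WT lipid A and 1643 for WT vehicle. Under vehicle, 1 of 7 detected markers was over 3-fold higher in KO, Clec10a, and 1 was lower, Chil3. The shares of all genes were 6.28% and 3.65%, and the median log2 ratio of these markers was 0.01.

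**Figure D4:**
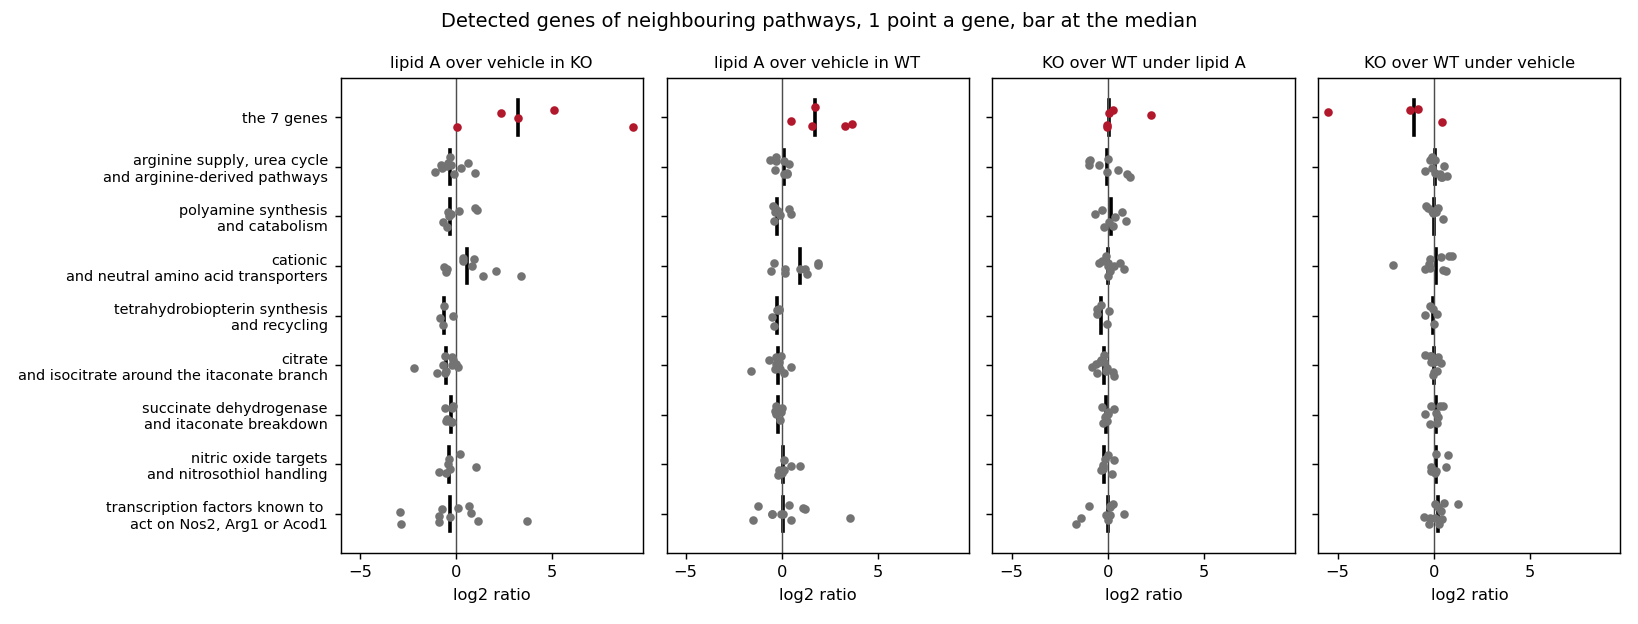
Log2 ratios of the detected genes of the members, in red, and of 8 neighbouring lists, in grey, for the same 4 comparisons. Each gene has 1 point, a bar marks the median, and background signals are raised to the median. The list of resting or alternative activation is not drawn. The bar of the members lies at 3.24 for lipid A in KO and at 1.73 in WT, and those of the transporters lie at 0.59 and 0.96.

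By the distance between the 4 log2 signals, each centred on its gene's mean, the genes most like Acod1 among 11343 genes were Cxcl3, a neutrophil-attracting chemokine, at 1.77, Ifit2, an antiviral gene, at 2.10 and Il12a, a subunit of interleukin-12, at 2.38. Cxcl3 gave 25413 in KO lipid A and 86.5 in KO vehicle, against 15209 for WT lipid A and 2090.1 for WT vehicle. Ifit2, like Acod1, was below the median in KO vehicle and above it in WT vehicle. Il12a was below the median in both, at 4.42 and 40.8, so no fold between the genotypes is given for it under vehicle. The genes nearest to Gch1 were Pilra at 0.13, Malt1 at 0.15 and Vnn3 at 0.16. Those nearest to Arg2 were Nrp2, Ddhd1 and Rnaset2a, at 0.30 to 0.33. Other probe sets of these neighbours can differ. Under vehicle Malt1 was 1.97-fold lower in KO by its brightest probe set, but 1.12-fold higher by the second and 1.08-fold lower by the third. Ddhd1 was 2.81-fold and 2.01-fold lower by its first and second, 1.07-fold lower by the third and 1.35-fold higher by the fourth. Rnaset2a was background in KO vehicle. For Slc7a2 the nearest were the chemokine Ccl3 at 0.63, the receptor Hcar2 at 0.74 and the proliferation marker Mki67 at 0.79. Arg2, Gch1 and Slc7a2 were chosen for this after their values were seen, and no neighbours are given for Nos2 and Arg1, whose signals were background. The distances rest on 4 arrays.

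Summed signals of several marker lists differed between the KO and WT arrays. All 8 macrophage markers reached the median on every array. Their summed signals were 177903 and 159993 in KO lipid A and KO vehicle and 205812 and 186949 in WT lipid A and WT vehicle. The sums hide single markers. Under vehicle Adgre1 was 2.73-fold lower in KO, 3726 against 10187, and was the only 1 of the 8 past 2-fold. Mertk was 1.46-fold lower there, whereas Fcgr1 was 1.94-fold and Itgam 1.21-fold higher. Markers of resident large peritoneal macrophages summed to 10402 and 9451 in the KO arrays and to 2079.6 and 1817 in the WT arrays, with 7 of 10 at or above the median in both KO arrays and 5 to 6 in WT. B cell markers summed to 5576 and 5292 in KO and to 623 and 752 in WT, with 7 of 9 against 3 to 5 at or above the median. Neutrophil markers summed to 2728 and 2521 in KO and to 5095 and 6299 in WT, with Mmp8 at 217 and 399 in KO and at 2346 and 3599 in WT, while Csf3r was higher in KO, 2.16-fold with lipid A. Mesothelium and fibroblast markers summed to 903 and 1055 in KO and to 1622 and 1935 in WT, but they did not all go the same way. Under vehicle the fibroblast genes Dcn and Pdgfra were 4.02-fold and at least 2.25-fold lower in KO. The mesothelial gene Msln was at least 1.83-fold higher in KO there, with a background signal in WT. T and NK cell markers summed to 24055.5 and 36652 in KO and to 28707 and 31615 in WT, nearly all of it from Il7r. The T cell receptor gene Cd3d was higher in KO, at least 2.02-fold with lipid A and at least 4.40-fold with vehicle, and so was Cd3g, at least 1.36-fold and at least 2.15-fold. Of the defining markers, Timd4 of resident macrophages, S100a9 of neutrophils, Prg2 and Epx of eosinophils and 6 of 7 mast cell markers were below the median on all arrays. The part of these cells in the differences of Acod1, Arg2, Gch1 and Slc7a2 was not tested.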

How the data were processed

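Total RNA of peritoneal macrophages was measured on Affymetrix whole-genome mouse arrays, 1 for each of 4 conditions. The deposited values are probe set intensities on a linear scale. The sources used here do not name the software with which the authors made them. The mean after trimming 2% at each end was equal on all arrays, from which a scaling of whole arrays was inferred. Of 45101 probe sets, 64 were array controls and were dropped. In the platform annotation 34945 probe sets had 1 symbol, 932 several and 9160 none, and only the first were named. Symbols were updated through gene numbers of the RefSeq table (34741 matched). Signals were log2-transformed and compared as ratios, at the thresholds of the study's methods, over 2-fold for lipid A and over 3-fold between genotypes, in both directions. Detection calls were not at hand, and the array median stood in for them.

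The members and lists were chosen with earlier results of these data known. Named genes were the members, Setdb1, up to 4 genes of a list with the largest ratios in a comparison, and the 3 genes of most like pattern among genes at or above the median on 2 or more arrays. Other scalings, filters, probe set rules and thresholds were tried. Counting past a threshold was checked on simulated signals. Changes were planted there only in genes well above the median, so changes near background were not covered. Computation used pandas 2.3.3 and numpy 2.4.6 in Python 3.11.15, and matplotlib 3.10.9 for plots.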

Additional observations from a re-analysis of the deposited data

Results flagged for a closer look

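For probe sets of Acod1, Arg2 and Slc7a2 the measured log2 ratio of KO over WT had opposite signs under lipid A and under vehicle, with 1 array for each condition, and the difference between the treatments was not tested. Acod1 had a log2 ratio of KO over WT of 0.035 under lipid A and of -6.22 under vehicle from the signals as measured, a difference of 6.26. The KO vehicle signal was background, and with the median in its place the ratio under vehicle was -5.51 and the difference 5.55. The ratio under lipid A is smaller than the technical spread between probe sets and was -0.036 after quantile normalization, so it has no settled sign. Arg2 had 0.27 under lipid A and -1.24 under vehicle by its first probe set, a difference of 1.51, and 0.11 and -1.14 by its second, a difference of 1.25, and both lipid A ratios are within the technical spread of 0.41. The second probe set of Slc7a2 had 2.73 under lipid A and -3.67 under vehicle, a difference of 6.40, and the third had 2.50 and -0.68, a difference of 3.18, in both cases with a background signal in KO vehicle. With the median in its place the third had 0.20 under vehicle, and the brightest probe set had 0.42, the same sign as under lipid A, so Slc7a2 has no settled sign under vehicle.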

How the results depend on the processing

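Of 64 counts of members recomputed under alternatives, 56 stayed within 1.5 times the main count. By this rule 7 or 4 in place of 5 counted as within it, and a main count of 0 stayed only at 0. Of 120 log2 values of single members, 112 moved by less than the technical spread between probe sets. For a difference of responses, the spreads of both responses combined were used. The count over 3-fold lower in KO under vehicle was 2 with each array divided by its median (Acod1 and Arg2), 2 with the median over probe sets (Acod1 and Slc7a2), 2 at over 2-fold (Acod1 and Arg2) and 0 with both arrays required to reach their median, since Acod1 did not in KO vehicle. At over 3-fold, 3 members in place of 5 were higher with lipid A in WT, namely Acod1, Arg2 and Slc7a2. With no detection filter, 1 member more was lower in KO under lipid A (Nos2), 1 higher in KO under vehicle (Arg1) and 1 lower with lipid A in KO (Arg1). Without this filter 7 members in place of 5 were higher with lipid A in WT, with Nos2 and Arg1 added. All these additions came from background signals. This WT count was 4, without Ass1, with each array divided by its median and with quantile normalization. It was also 4 with background signals raised to the median and with both arrays required to reach it. With background signals raised to the median, the log2 ratio of Acod1 between lipid A and vehicle in KO was 9.19 in place of 9.90. No array could be left out, since each condition has 1. Signal over background limits what can be said of Nos2, Arg1 and Ass1.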
